A study of Homo sapiens with 4 samples.

Results

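Aminoacyl-tRNA synthetases join each amino acid to its transfer RNA and so supply the charged tRNAs that both the cytosolic and the mitochondrial ribosome read. The genes described here are 20 that encode cytosolic synthetase subunits, 16 that encode mitochondrial enzymes (symbols ending in 2) and 2 scaffold genes, AIMP1 and AIMP2. They are the rows of the deposited table whose symbol was on a list of 38 names. All 38 were found among the 60302 genes of the table, each in 1 row.

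The libraries came from HMLE cells, human mammary epithelial cells that were immortalized. Control cells (2 samples) stably expressed a non-specific shRNA from a lentiviral vector, and hnRNPF knockdown cells (2 samples) an shRNA against hnRNPF delivered the same way. hnRNP F is an RNA-binding protein that binds G-rich sequence and regulates splicing. The table gives 1 FPKM value per gene and sample, a fragment count divided by gene length and by library depth. The title of the series names RNA G-quadruplexes and alternative splicing through this protein; the comparison asks here how the levels of the synthetase genes differ between the 2 groups. Whether both samples of a group carry the same hairpin, or come from separate infections, is not given in the sources used here. The p-values thus measure only a spread that may be technical. Each ± below is an SD with n = 2.

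Most cytosolic synthetases work alone or in pairs, but several are held with AIMP1 and AIMP2 in one large particle, the multi-synthetase complex. GARS and KARS each encode both the cytosolic and the mitochondrial form of their enzyme, and EPRS joins the glutamate and proline enzymes in one protein. Many cytosolic synthetase genes are induced by the transcription factor ATF4 when uncharged tRNA or other stress activates the kinases that phosphorylate eIF2. ATF4 binds with C/EBP partners to a short composite element. The mitochondrial enzymes are encoded in the nucleus, imported into the organelle and needed only for the proteins of the respiratory chain made there.

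The core of that composite element, TGATGNAA (TTNCATCA on the other strand), was searched in the 300 bases around each gene start, from 250 bases before it to 50 bases after it. Sequences were those of RefSeq on GRCh38.p14, and 32 of the 38 members had an entry. AARS2, DARS, LARS, VARS, VARS2 and YARS had none. The matches are shown because they divide the members by a feature that the choice of names did not use. Each line is a 30-base window on the gene's own strand, 5′ to 3′, with the match in capitals.

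AARS: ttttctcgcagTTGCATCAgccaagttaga
CARS: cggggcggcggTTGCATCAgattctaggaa
GARS: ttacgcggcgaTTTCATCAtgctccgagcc
IARS: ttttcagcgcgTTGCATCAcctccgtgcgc
MARS: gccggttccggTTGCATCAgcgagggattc
NARS: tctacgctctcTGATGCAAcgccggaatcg
TARS: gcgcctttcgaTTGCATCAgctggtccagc
YARS2: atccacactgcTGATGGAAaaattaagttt

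In GRCh38.p14 coordinates these windows are chr16:70289675-70289704 for AARS, chr11:3057407-3057436 for CARS, chr7:30594834-30594863 for GARS and chr9:92293692-92293721 for IARS. Those of the others are chr12:57488053-57488082 for MARS, chr18:57621804-57621833 for NARS, chr5:33440956-33440985 for TARS and chr12:32756076-32756105 for YARS2. AARS, CARS, IARS, NARS and YARS2 lie on the minus strand, and GARS, MARS and TARS on the plus strand. A match was present for 7 of the 16 cytosolic members searched (43.8%) and for 1 of the 14 mitochondrial members (7.14%). Over all 27305 genes of the RefSeq promoter sequences the share with a match was 4.46%, and over their 35116 windows of that length it was 3.62%. The 7 cytosolic genes were all among the 10 searched whose induction by ATF4 is well known, and none of the 6 other cytosolic genes searched had one. In 6 of the 8 windows the match was TGATGCAA or its reverse complement. Of all 35116 windows, 1270 held a match to the core, and 304 held TGATGCAA on either strand (0.866% of all windows). Counted from the first transcribed base, taken as position 0, the match began at -187 in AARS and -197 in YARS2. It began between -33 and 14 in the other 6 genes. A match describes the letters of a window and is no evidence that a factor was bound in these cells.

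HNRNPF, the targeted gene, checked the labels. It was at 154 and 153 FPKM in controls 1 and 2 and at 18.7 and 16.6 FPKM in knockdown samples 1 and 2. Both knockdown samples were thus far below both controls, 8.71-fold by the ratio of the means. HNRNPF was the only gene among the 13110 tested that passed an adjusted p of 0.05 (0.00763% of them; limma, adjusted p = 0.0251). Its adjusted p in limma was 0.262 when control 1 was left out and 0.104 when control 2 was, so each control was needed for the call. The FPKM sums lay between 391184 and 396135 per sample. Fragment totals are not listed. If the commonest smallest value of genes with a single exon stands for 1 fragment, the libraries held about 77900000 to 85000000 fragments. Only a preset range of totals was searched, so this estimate could not fall outside it. Gene lengths for it came from GENCODE, which may differ from the annotation behind the FPKM. Of the 8 basal and epithelial markers checked, which include KRT5, KRT14 and TP63, each reached at least 19.5 FPKM in every sample, and their summed level was 7472 to 11151 FPKM. The 5 luminal markers checked were mixed. KRT8 was at 248 to 303 FPKM and KRT18 at 121 to 177 FPKM. GATA3 was at 2.78 to 3.62 FPKM, and FOXA1 and ESR1 stayed under 1 FPKM. CD3E was listed at 0 in all samples, and PTPRC was at or under 0.038 FPKM. Of the same leukocyte list CD14 reached 1.43 FPKM and CD68, which other cells can also express, lay between 11.2 and 12.1 FPKM, so the list was not at 0 as a whole. Summed fibroblast markers were at 10.2 to 13.5 FPKM, nearly all of it COL1A1.

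All 38 synthetase and scaffold genes were expressed at a mean of at least 1 FPKM and were therefore tested. By mean FPKM over the 4 samples the cytosolic genes ranged from 25.1 FPKM (CARS) to 131 FPKM (GARS), with a median of 62.5 FPKM. The mitochondrial genes ranged from 3.27 FPKM (PARS2) to 59.8 FPKM (IARS2), with a median of 13.8 FPKM. Of the 16 mitochondrial genes, 14 had a mean below that of the lowest cytosolic gene, and the 2 above it were IARS2 and VARS2. GARS, for glycine (136 and 118 FPKM in control cells, 142 and 127 FPKM in knockdown cells), and SARS, for serine (134 and 117, then 127 and 122 FPKM), stood at the top. Their ranges overlapped, so the order of these 2 is not set by these samples. KARS, TARS, QARS, IARS and MARS followed with overlapping ranges. At the low end of the cytosolic set FARSB, HARS and WARS lay within 26.8 and 34.8 FPKM in all samples and could not be ordered either. Among the mitochondrial genes PARS2, for proline, lay at 3.14 to 3.32 FPKM, and its 4 values did not reach those of the next gene, MARS2 (4.59 to 6.11 FPKM).

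**Figure D1:**
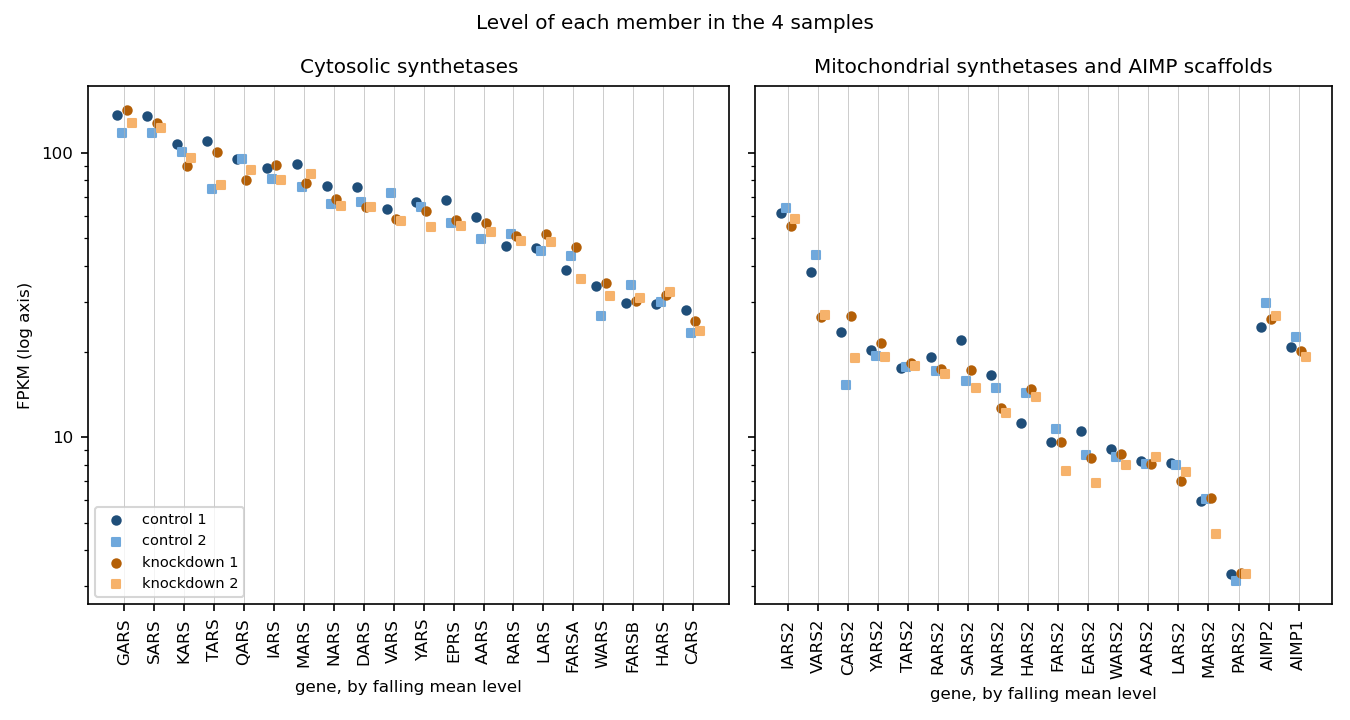
FPKM (log axis) of each member in controls 1 and 2 and knockdown samples 1 and 2, with genes in order of mean level within each panel. The cytosolic genes lie between 23.2 and 142 FPKM, and all but 2 of the mitochondrial genes have means below the lowest cytosolic mean of 25.1 FPKM.

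None of the 38 genes differed between the groups at an adjusted p of 0.05 in limma; their adjusted p-values lay between 0.540 and 0.999. At an unadjusted p under 0.05 there were 2 members lower in knockdown cells (VARS2 and NARS2) and 0 higher, against 3.02% of all tested genes lower and 3.06% higher. The knockdown samples were both below the 2 controls for 11 members and both above them for 4, which is 28.9% and 10.5% of them. The same held for 17.1% and 17.5% of all tested genes. Log2 differences are of FPKM + 1, knockdown minus control. Their median over the 20 cytosolic genes was -0.041, over the 16 mitochondrial genes -0.10 and over all tested genes 0.0012. The cytosolic median turned to 0.047 without control 1 and to 0.012 without knockdown 2. The mitochondrial median was -0.017 without control 1 and -0.033 without knockdown 2, so control 1 and knockdown 2 set much of both values. Median levels per sample, as log2(FPKM + 1), gave another picture. That of the cytosolic genes was 6.10 and 6.05 in control cells and 5.94 and 5.84 in knockdown cells, without overlap. For the mitochondrial genes it was 3.87 and 3.96, then 3.88 and 3.81, with overlap. Such a median is set by the genes in the middle of a set, which can be other genes in each sample. The summed FPKM of the cytosolic genes overlapped (1426 and 1293, then 1348 and 1274), as did 13 of the 20 genes singly. How often medians of other gene sets separate was not computed. For 36 members the 95% interval of the difference included 0. Those intervals reached down to -0.73 (EARS2) and up to 0.96 (CARS2), so differences of that size in these genes are not excluded here.

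**Figure D2:**
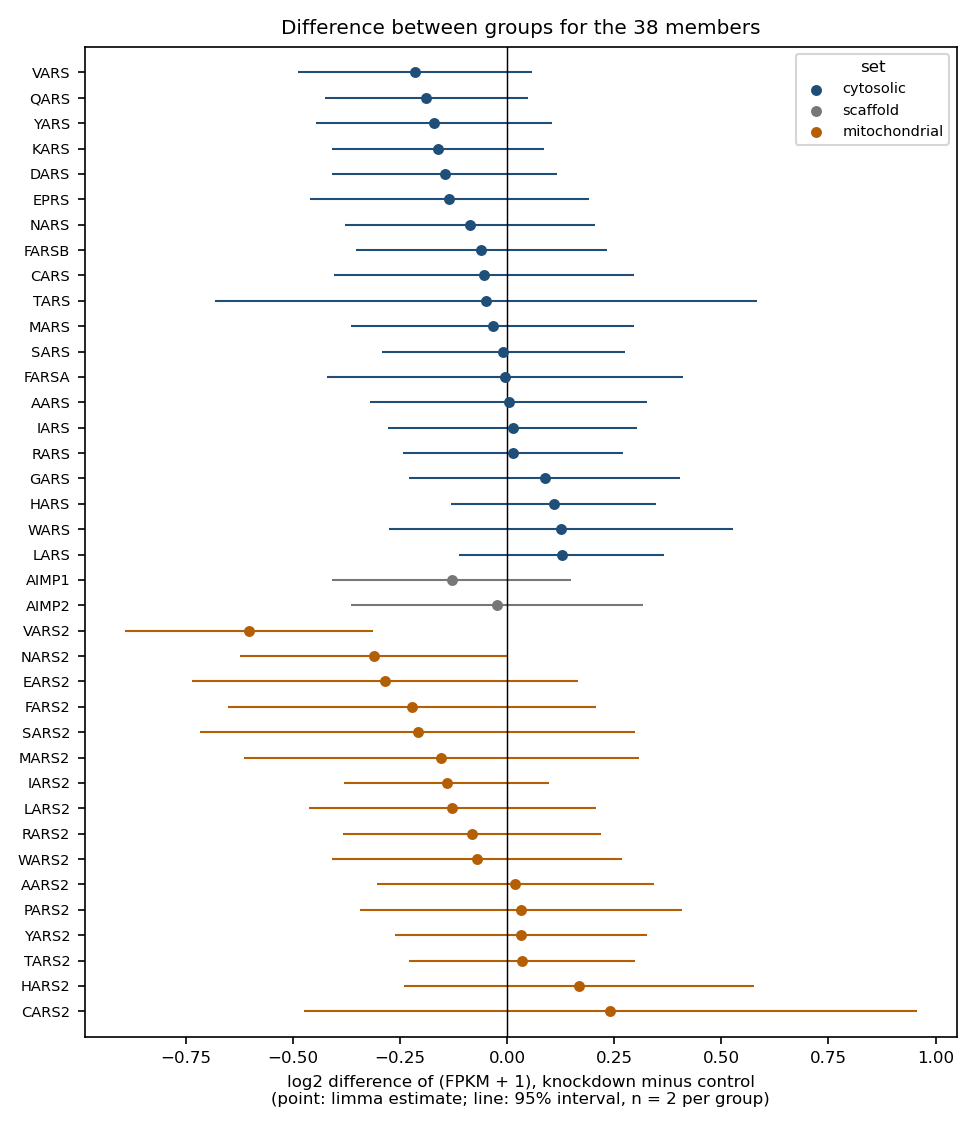
Log2 difference of FPKM + 1, knockdown minus control, for the 38 members by set, with limma's estimate (point) and its 95% interval (line), n = 2 per group. VARS2 has the lowest estimate, -0.60, and only its interval and that of NARS2 lie wholly below 0.

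VARS2, the mitochondrial valine enzyme (ENSG00000137411.16, chromosome 6, 30876019 to 30894236 on the plus strand, GRCh37), had the largest difference of all members. It was at 38.2 and 43.8 FPKM in control cells and at 26.4 and 26.8 FPKM in knockdown cells. The 2 knockdown samples nearly coincided and lay well below both controls, with a mean 35.1% lower (41.0 ± 4.0 and 26.6 ± 0.258 FPKM). The log2 difference was -0.60 (SE 0.11; limma, unadjusted p = 0.00369, adjusted p = 0.540), rank 84 among all tested genes by p. Leaving out each sample in turn gave -0.70 to -0.50 with unadjusted p-values (limma) of 0.00504 to 0.0177. The gene's start lies inside GTF2H4, a gene for a subunit of the transcription and repair factor TFIIH on the same strand, so fragments of the shared stretch can be given to either. GTF2H4 was at 12.8 and 9.93 FPKM in control cells and at 17.9 and 14.7 FPKM in knockdown cells, the opposite direction (limma, unadjusted p = 0.0436, adjusted p = 0.817). Summed FPKM of both genes were 50.9 and 53.8 in control cells and 44.3 and 41.5 in knockdown cells. The sum was lower in both knockdown samples, with a log2 difference of -0.28 (limma, unadjusted p = 0.0337, adjusted p = 0.801). FPKM is divided by each gene's own length, so fragments moved between genes of unlike length would change this sum. The sum therefore cannot show how much of the VARS2 difference comes from such sharing. VARS2 made up 75.0% and 81.5% of the sum in control cells and 59.7% and 64.6% in knockdown cells. How the fragments were shared between the genes was not tested.

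**Figure D3:**
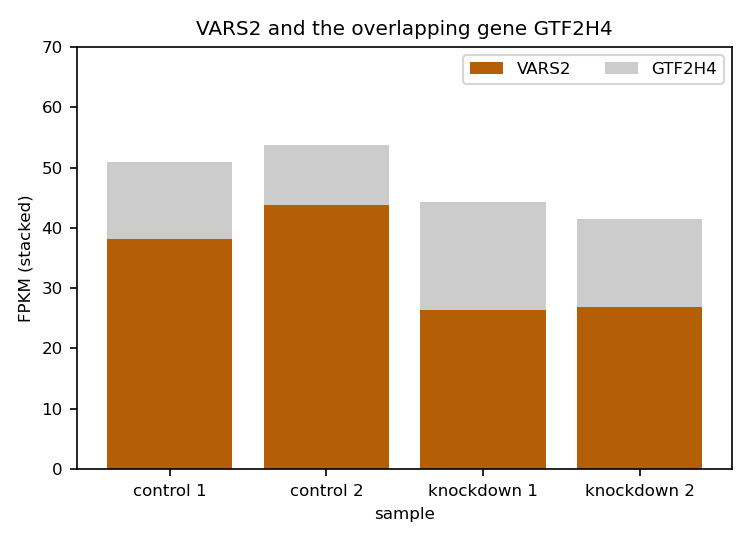
FPKM of VARS2 (brown) and of the overlapping gene GTF2H4 (grey), stacked for each sample. The total is 50.9 and 53.8 FPKM in control cells and 44.3 and 41.5 FPKM in knockdown cells, and the VARS2 part is 38.2, 43.8, 26.4 and 26.8 FPKM.

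Asparagine is charged in mitochondria by NARS2 (chromosome 11, 78147007 to 78285919, GRCh37), which was at 16.6 and 14.8 FPKM in control cells and at 12.7 and 12.2 FPKM in knockdown cells. The groups did not overlap, the mean was 20.7% lower and the log2 difference was -0.31 (SE 0.12; limma, unadjusted p = 0.0498, adjusted p = 0.821). It did not keep an unadjusted p under 0.05 when any 1 sample was left out (0.0737 to 0.210 in limma). EARS2, the mitochondrial glutamate enzyme, was at 10.5 and 8.64 FPKM in control cells and at 8.47 and 6.89 FPKM in knockdown cells. Here control 2 and knockdown 1 almost met. IARS2, for isoleucine, was at 61.6 and 63.9 FPKM against 55.1 and 58.7 FPKM, and LARS2, for leucine, at 8.09 and 8.01 against 7.01 and 7.58 FPKM. These 5 were the mitochondrial genes whose knockdown samples both lay below both controls (31.25%, against 17.1% of all tested genes). Differences of the last 3 had unadjusted p-values of 0.161, 0.187 and 0.362 in limma.

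TARS2 (17.5 and 17.6 FPKM in control cells, 18.2 and 17.8 FPKM in knockdown cells) and PARS2 (3.31 and 3.14, then 3.32 and 3.31 FPKM) lay above both controls by 2.60% and 2.96% in the mean. Such differences are far inside their intervals, and that of PARS2 turned to -0.0096 with quantile normalization. TARS2 and PARS2 made up 12.5% of the mitochondrial genes, against 17.5% of all tested genes that were higher without overlap. The other 9 mitochondrial genes overlapped between the groups. CARS2, the mitochondrial cysteine enzyme, had the highest estimate of the set (log2 difference 0.24), but its samples were at 23.5 and 15.2 FPKM in control cells and at 26.7 and 19.0 FPKM in knockdown cells. Its samples differed more within a group than between groups. SARS2 was at 22.0 FPKM in control 1 and between 14.9 and 17.3 FPKM in the other 3 samples. FARS2 and MARS2 were lowest in knockdown 2, at 7.59 and 4.59 FPKM, and stood at 9.61 to 10.7 and 5.96 to 6.11 FPKM in the other samples. HARS2 was at 11.2 FPKM in control 1 and at 13.9 to 14.8 FPKM in the others. AARS2, RARS2, WARS2 and YARS2 had log2 differences between -0.082 and 0.033.

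Of the 20 cytosolic genes, 5 were lower in both knockdown samples than in both controls, against 17.1% of all tested genes. VARS, for valine, was at 63.3 and 72.0 FPKM in control cells and at 58.6 and 57.5 FPKM in knockdown cells, a mean 14.2% lower. Among the 14 amino acids with a separate cytosolic and mitochondrial gene here, valine was the only one with both lower without overlap. Lysine has 1 gene for both enzymes, KARS, which was also lower without overlap. QARS, for glutamine, was at 95.2 FPKM in both controls and at 80.3 and 86.7 FPKM in knockdown cells. The controls agreed closely there and the knockdown mean was 12.3% lower. YARS, for tyrosine, was at 67.0 and 64.5 FPKM against 62.2 and 54.8 FPKM, and KARS, for lysine, at 107 and 100.5 against 89.7 and 95.9 FPKM. DARS, for aspartate, was at 75.6 and 67.3 FPKM in control cells and at 64.5 and 64.3 FPKM in knockdown cells. The log2 differences of these 5 lay between -0.21 (VARS) and -0.15 (DARS), with unadjusted p-values from 0.0956 to 0.207 and adjusted p-values from 0.870 to 0.916 in limma.

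The leucine gene LARS (46.2 and 45.3 FPKM in control cells, 51.7 and 48.5 FPKM in knockdown cells) and HARS, for histidine (29.4 and 29.98, then 31.7 and 32.5 FPKM), were higher in both knockdown samples. Their log2 differences were 0.13 and 0.11 (limma, adjusted p = 0.920 and 0.950). LARS and HARS were 2 of the 20 cytosolic genes, against 17.5% of all tested genes that were higher without overlap. HARS and HARS2 are neighbours that start in opposite directions, with 84 bases between their RefSeq starts (chr5:140691371-140691454, GRCh38.p14). That stretch is shown on the plus strand, the strand of HARS2, because both genes use it as upstream sequence.

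HARS-HARS2: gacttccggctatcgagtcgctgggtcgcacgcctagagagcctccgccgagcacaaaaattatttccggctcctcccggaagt

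It is 59.5% G and C and holds no match to the composite element. Both genes were lowest in control 1, HARS at 29.4 FPKM and HARS2 at 11.2 FPKM, and highest in different knockdown samples. HARS2 also overlaps ZMAT2 on the same strand, which was at 36.8 and 37.6 FPKM in control cells and at 38.1 and 39.1 FPKM in knockdown cells. Other same-strand overlaps of the members involved genes at or under 2.29 FPKM.

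The remaining 13 cytosolic genes overlapped between the groups. The alanine gene AARS was at 59.3 and 49.9 FPKM in control cells and at 56.6 and 52.6 FPKM in knockdown cells. IARS, for isoleucine, was at 88.4 and 80.9 FPKM and then at 90.8 and 80.2 FPKM. The log2 differences of AARS and IARS were 0.0036 and 0.013. EPRS, for glutamate and proline, was at 68.3 FPKM in control 1 and at 55.4 to 58.0 FPKM in the other samples. WARS, the tryptophan enzyme, is also an interferon-induced gene and was at 34.0 and 26.8 FPKM in control cells and at 34.8 and 31.3 FPKM in knockdown cells. The phenylalanine enzyme is built from the products of FARSA and FARSB. FARSA was at 38.9 and 43.3 FPKM in control cells and at 46.5 and 35.9 FPKM in knockdown cells, and FARSB at 29.7 and 34.1, then 30.1 and 31.0 FPKM. For FARSA the knockdown samples lay on either side of the controls. TARS, for threonine, was at 110 and 74.8 FPKM in control cells and at 100.4 and 76.8 FPKM in knockdown cells, so its level went with the sample number rather than with the group. CARS, GARS, MARS, NARS, RARS and SARS had log2 differences from -0.086 to 0.088.

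Within the multi-synthetase complex, 4 of the 10 genes were lower without overlap (QARS, KARS, DARS and AIMP1) and LARS was higher, against 17.1% lower and 17.5% higher over all tested genes. The median log2 difference of the 10 was -0.081. AIMP1, which also gives rise to a secreted cytokine, was at 20.7 and 22.5 FPKM in control cells and at 20.1 and 19.2 FPKM in knockdown cells. AIMP2 was at 24.3 and 29.5 FPKM in control cells and within that range, at 26.1 and 26.6 FPKM, in knockdown cells. EPRS, IARS, MARS, RARS and AIMP2 overlapped between the groups. The 12 cytosolic genes outside the complex had a median of -0.029. Without overlap 2 of them were lower (VARS and YARS, 16.7%) and 1 was higher (HARS, 8.33%), against the same 17.1% and 17.5%. By catalytic fold, 7 of the 18 class I genes and 3 of the 17 class II genes were lower without overlap, and 1 and 3 were higher. The class I shares were 38.9% lower and 5.56% higher, and both class II shares were 17.6%, close to the 17.1% and 17.5% of all tested genes. Their medians were -0.076 and -0.0085. These counts describe small groups of genes measured in the same 4 samples, and differences between them were not tested.

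The cytosolic genes known to respond to ATF4 were set beside the other members and beside the remaining ATF4 pathway. Of these 13 genes, 2 were lower without overlap (VARS and YARS, 15.4%) and 1 was higher (LARS, 7.69%). Their median log2 difference was -0.033. The 7 other cytosolic genes had 3 lower (42.9%), 1 higher (14.3%) and a median of -0.060. Over all tested genes the shares were 17.1% lower and 17.5% higher. The 7 cytosolic genes with a match to the composite element, all printed above, overlapped between the groups without exception (log2 differences from -0.086 to 0.088). The list of ATF4 and its other targets held amino acid transporters, serine and one-carbon enzymes and stress regulators. Of its tested genes, 12 of 29 were lower without overlap (41.4%, against 17.1% of all tested genes), 1 was higher (against 17.5%) and the median was -0.18. None passed over all genes, and 3 were lower and 0 higher at an unadjusted p under 0.05 in limma, against 3.02% and 3.06% of all tested genes. TRIB3, an ATF4-induced pseudokinase gene, was at 41.6 and 38.2 FPKM in control cells and at 21.0 and 18.2 FPKM in knockdown cells (limma, adjusted p = 0.352). SLC3A2, the shared heavy chain of several amino acid transporters, was at 248 and 239 FPKM and then at 164 and 171 FPKM (limma, adjusted p = 0.513). ATF4 was at 208 and 187 FPKM in control cells and at 193 and 179 FPKM in knockdown cells, with overlap.

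**Figure D4:**
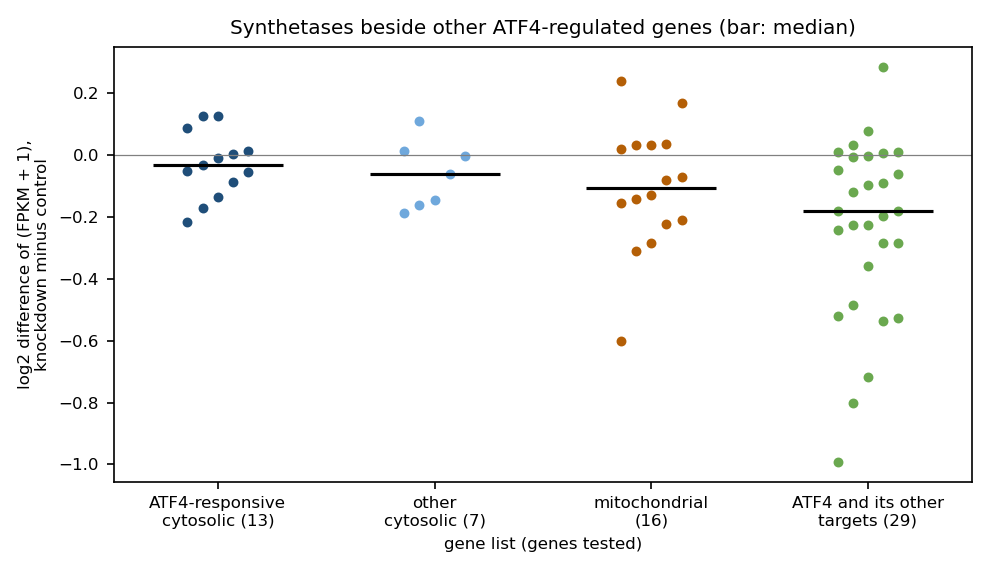
Log2 difference of FPKM + 1, knockdown minus control, for each gene of 4 lists, with the median of each as a bar. The medians are -0.033 for ATF4-responsive cytosolic synthetases, -0.060 for the other cytosolic synthetases, -0.10 for the mitochondrial ones and -0.18 for ATF4 and its other targets.

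Most ATF4-responsive synthetases were higher in sample 1 than in sample 2 of both groups. Control 1 was above control 2 for 12 of the 13 (all but VARS), and knockdown 1 was above knockdown 2 for 12 of the 13 (all but MARS). Among all tested genes these shares were 67.7% and 66.4%. The median log2 difference was 0.21 between the controls and 0.10 between the knockdown samples. Over all tested genes the same medians were 0.11 and 0.094. Between the groups it was -0.033, but that compares means of 2 samples, which vary less than single samples. The median level of the 13, as log2(FPKM + 1), was 6.12 and 6.07 in controls 1 and 2. It was 5.98 and 5.87 in knockdown samples 1 and 2, without overlap by this measure. The median of 13 genes is the value of 1 gene, here another gene in each sample. That gene was EPRS in control 1, NARS in control 2, YARS in knockdown 1 and VARS in knockdown 2. Singly, 10 of the 13 genes overlapped between the groups. Of the 7 other cytosolic genes, control 1 was above control 2 for 2 and knockdown 1 above knockdown 2 for 3. Their median log2 differences were -0.028 and -0.035. Among the 29 genes of the ATF4 list control 1 was above control 2 for 24 and knockdown 1 above knockdown 2 for 21. Taken between samples of the same number, the ATF4-responsive synthetases had a median difference of -0.11 for knockdown 1 against control 1 and of 0.037 for knockdown 2 against control 2. The 2 comparisons therefore differed in sign. For the 16 mitochondrial genes they were -0.038 and -0.079, and for the ATF4 list -0.28 and -0.084. What the sample numbers stand for is not given in the sources used here, and its part in these values was not tested.

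**Figure D5:**
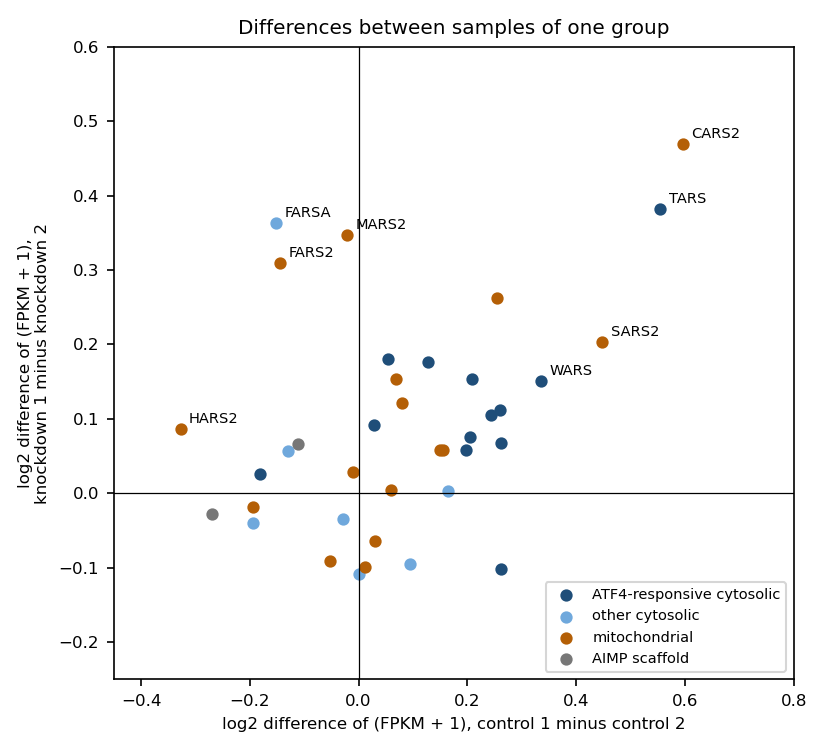
Log2 difference of FPKM + 1 between the 2 controls (horizontal) and between the 2 knockdown samples (vertical) for each member, coloured by list. Of the 13 ATF4-responsive genes 11 lie in the upper right, with VARS to the left and MARS below; TARS and CARS2 lie farthest out.

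For 14 amino acids the table holds a cytosolic and a separate mitochondrial gene, with FARSA taken for phenylalanine. The cytosolic gene had the higher mean level per length in all 14. The ratio of the FPKM of the 2 genes, averaged over the samples, ran from 1.23 (cysteine, at 0.956 in knockdown 1) to 14.7 (methionine). The ratio for valine was 1.66 and 1.64 in control cells and 2.22 and 2.15 in knockdown cells. For asparagine it was 4.61 and 4.45 against 5.40 and 5.35, for leucine 5.71 and 5.66 against 7.39 and 6.40, and for phenylalanine 4.04 and 4.03 against 4.82 and 4.73. Tryptophan was the fifth with higher ratios in both knockdown samples (3.74 and 3.13, then 3.98 and 3.93). For valine both genes were lower without overlap, VARS2 by 35.1% and VARS by 14.2% in the mean. For asparagine NARS2 was lower without overlap and NARS overlapped, and for leucine LARS2 was lower and LARS higher. Tyrosine alone had lower ratios in both knockdown samples (3.31 and 3.35, then 2.91 and 2.86), and YARS itself was lower. The other 8 overlapped. How often ratios of other gene pairs separate in this way was not computed. These counts therefore have no background and are not read as a shift. The summed FPKM of the 20 cytosolic genes was 1426 and 1293 in control cells and 1348 and 1274 in knockdown cells, 3.52% lower in the mean. That of the 16 mitochondrial genes was 285 and 275, then 261 and 246, 9.45% lower and without overlap. Without VARS2 the sum of the other 15 was 247 and 231 FPKM in control cells and 235 and 219 FPKM in knockdown cells, 5.05% lower and with overlap. Without VARS2 the median log2 difference of the other 15 mitochondrial genes was -0.082.

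Partners in tRNA charging and use showed no gene that passed over all tested genes. Of 17 partner genes 6 were lower and 2 higher without overlap (35.3% and 11.8%, against 17.1% and 17.5% of all tested genes), with a median log2 difference of -0.029. At an unadjusted p under 0.05 in limma 1 was higher. This was GATB, a subunit of the amidotransferase that makes glutaminyl-tRNA in mitochondria, at 10.7 FPKM in both controls and at 13.4 and 16.3 FPKM in knockdown cells (limma, unadjusted p = 0.0305, adjusted p = 0.797). DTD1, which removes D-amino acids from tRNA, was at 43.9 and 43.3 FPKM in control cells and at 38.3 and 38.6 FPKM in knockdown cells.

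Of 9 elongation factors 3 were lower and 2 higher without overlap (33.3% and 22.2%, against the same 17.1% and 17.5%). EEF1B2, which exchanges nucleotide on the factor that carries charged tRNA to the ribosome, was at 295 and 318 FPKM against 236 and 271 FPKM, and TUFM, the mitochondrial carrier, at 190 and 202 against 174 and 173 FPKM. All 6 genes of eIF2 kinases and their regulators overlapped, among them EIF2AK4, the kinase that senses uncharged tRNA (33.4 and 28.6 FPKM in control cells, 29.5 and 27.5 FPKM in knockdown cells), and GCN1, its activator (42.7 and 39.4, then 42.3 and 36.4 FPKM). The 11 interferon-response genes tested, listed because WARS is one, all had estimates above 0 with a median of 0.20; 5 were higher without overlap (45.5%, against 17.5% of all tested genes) and 3 were higher at an unadjusted p under 0.05 in limma (against 3.06%). SAMD9 was at 5.74 and 4.78 FPKM in control cells and at 8.51 and 7.46 FPKM in knockdown cells, and IFI6 at 4.32 and 5.06, then 8.19 and 19.4 FPKM. WARS, with overlapping groups, had a log2 difference of 0.13 (limma, unadjusted p = 0.448, adjusted p = 0.998). In these bulk samples fewer cells of a kind and less RNA per cell cannot be told apart.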

How the data were processed

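The authors deposited 1 table of FPKM for 4 samples, with 1 column per replicate, per the file headers; its rows give a symbol, a versioned Ensembl identifier and a locus with strand. Libraries were stranded, paired-end and polyA-purified, per the labels' protocols. Per the submitters' processing notes, STAR 2.5.3a, Cuffdiff 2.2.1 and GRCh37 were named without roles; the annotation is not given in the sources used here.

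The 13110 genes averaging 1 FPKM or more were transformed as log2(FPKM + 1), which understates changes of low genes, and fitted with limma 3.58.1 in R 4.3.3 (intensity trend, no covariate, two-sided, Benjamini-Hochberg over all genes, threshold 0.05). The fit was tested on simulated data. FPKM carry no counts, so no count test was run. With 2 samples a group an exact permutation test cannot go below 0.333, and none is reported. The alternatives, 14 in all, were other pseudocounts, filters and scalings, no trend, a robust fit, a replicate block, each sample left out and members summed with overlapping genes. All members are named, with HNRNPF and the 2 genes with the smallest p of each further list other than the marker lists. ATF4, GTF2H4, ZMAT2 and the marker genes named were added, chosen after their values were seen. Members, lists and tests were chosen with earlier results of these data known. Loci are GRCh37, promoter windows GRCh38.p14. Python 3.11.15, pandas 2.3.3 and matplotlib 3.10.9 were used for summaries and figures.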

Additional observations from a re-analysis of the deposited data

How the results depend on the processing

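No member passed an adjusted p of 0.05 in limma under any of the 14 alternatives; the lowest adjusted p was 0.275, for VARS2 with the replicate block. Among the members 19 kept the sign of their difference under all alternatives, and 19 changed it under at least 1, none of them past the threshold. Other filters, no trend, a robust fit and the replicate block cannot change a log2 difference. Groups without overlap also keep its sign whichever sample is left out. A kept sign there is no separate check. HNRNPF kept its direction, and its log2 difference of -3.05 lost the call with no filter (adjusted p = 0.259), no intensity trend (0.0995) and the replicate block (0.164); over all genes these 3 settings gave 0 calls. Leaving out each sample gave 0 to 2 calls over all genes and -3.13 to -2.98 for HNRNPF; the arm left with 1 sample was then assumed to vary like the other. Members at an unadjusted p under 0.05 numbered 2 with all samples, 1 with no trend, 1 with robust estimation, 1 whichever sample was left out and 3 with the replicate block (VARS2, NARS2 and EARS2). Without 1 sample the cytosolic median ranged from -0.12 to 0.047, turning above 0 without control 1 (0.047), and the mitochondrial median from -0.12 to -0.017. The difference of the medians, 0.063 with all samples, lay between 0.0029 and 0.063 there. Its direction depended on the measure. From median levels per sample, cytosolic minus mitochondrial was 2.23 and 2.09 in control cells and 2.06 and 2.04 in knockdown cells, thus lower in knockdown cells. Same-numbered samples deviated together over all genes (correlation 0.39), but the labels give the number no meaning. FPKM without fragment counts and 2 samples a group limit the precision.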
